A study of Mus musculus with 6 samples.

Results

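The genes described here encode the enzymes that build cholesterol and fatty acids, the desaturases and elongases that finish fatty acids, and the SREBP factors and partners that control them. They were taken from a list of 36 genes, each represented by the array probe set whose only annotated gene it is, and 33 of the 36 had such a probe set, out of 19661 genes tested. Acat2, Idi1 and Me1 did not meet that rule and are not analysed here. No gene of the 33 had more than 1 probe set, so no choice among probe sets was needed. By role they comprised 14 sterol synthesis enzymes, 6 genes of the SREBP pathway and sterol transport, 4 fatty acid synthesis enzymes, 3 elongases, 5 desaturases and the phospholipid acyltransferase gene Lpcat3.

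Expression was measured in megakaryocyte-erythroid progenitors, bone marrow cells that form red cells and platelets. One group came from mice with intact Fog1 (Fog1+/+) and the other from mice with a Fog1 knock-in on both alleles (Fog1ki/ki), with 3 arrays per genotype and 1 biological replicate per array. Fog1, also named Zfpm1, encodes a cofactor of the erythroid and megakaryocytic transcription factor GATA1. All mice were of strain B6.129, and the cells of both genotypes were sorted from bone marrow as negative for lineage markers, Sca1 and CD34, positive for Kit and low for FcγRII/III. The labels give no age, no treatment, no number of animals per replicate and no account of what the knock-in changes. General knowledge of the study says that the altered protein no longer binds the NuRD chromatin complex. The labels call the replicates biological but do not say that they came from separate animals, so the p-values measure the spread between these samples.

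Cholesterol is built from acetyl-CoA through mevalonate, squalene and lanosterol, and fatty acids are built from acetyl-CoA through malonyl-CoA to palmitate. When membranes are short of sterol, SCAP carries the SREBP factors from the endoplasmic reticulum to the Golgi, where they are cut and released to switch on both sets of enzymes, and INSIG proteins hold SCAP back when sterol is plentiful. Stearoyl-CoA desaturases place the first double bond in saturated fatty acids, the FADS enzymes add further ones to polyunsaturated chains, and LPCAT3 places polyunsaturated chains in membrane phospholipids. Dividing progenitors need both lipids for the membranes of new cells.

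The median log2 value of an array was 6.02 to 6.15, and the lower quartile was 4.81 to 4.92. All 33 genes lay above the lower quartile on every array, and 15 lay above the upper quartile on every array. Zfpm1 measured 7.57, 7.37 and 7.80 in Fog1+/+ and 7.65, 7.50 and 7.73 in Fog1ki/ki. The mean log2 level of 9 markers of the labelled progenitor was 8.40 to 8.43 in Fog1+/+ and 8.35 to 8.53 in Fog1ki/ki. None of the 9 passed (0 in limma, 4 at an unadjusted p under 0.05), but 5 did not overlap between genotypes. Gata1 (-0.29) and Kit (-0.38) were lower in every Fog1ki/ki array, as 6.53% of all genes were, and Nfe2 (0.33), Itga2b (0.31) and Tal1 (0.14) were higher in every one, as 8.31% were (log2 differences, Fog1ki/ki minus Fog1+/+). Of the genes of the sorting gate, the receptor gene Fcgr2b (0.29) was also higher in every Fog1ki/ki array without passing (limma adjusted p = 0.248). Replicate 3 of each genotype stood apart from the other arrays in the Y-linked gene Eif2s3y, at 3.21 and 3.46 against 9.29 to 9.44, so the counts of genes past the threshold among the 33 and over all genes were also computed without these arrays. In bulk samples such as these, fewer cells of a type and less RNA per cell cannot be told apart.

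Of the 33 genes, 1 rose, the desaturase gene Scd1, and 1 fell, Lpcat3, while 31 did not pass the test (limma, adjusted p under 0.05 over all genes tested). Over all genes tested, 0.376% passed as higher and 0.397% as lower in Fog1ki/ki, 0.773% in either direction. None of the 14 sterol enzymes passed (0 in limma, while 0 were higher and 2 lower by the unadjusted p under 0.05 that 4.99% and 4.58% of all genes reached in those directions). The median log2 difference, Fog1ki/ki minus Fog1+/+, was -0.02 over the 33 genes and 0.02 over all genes tested. For each of the 31 genes that did not pass, the 95% confidence interval of the difference lay inside a 2-fold change in either direction. For 24 of them it lay inside a 1.5-fold change. Of the 19509 genes of the whole table that did not pass, 19259 lay inside 2-fold and 17553 inside 1.5-fold. Without replicate 3 of either genotype, Scd1 was still called and Lpcat3 was not.

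**Figure D1:**
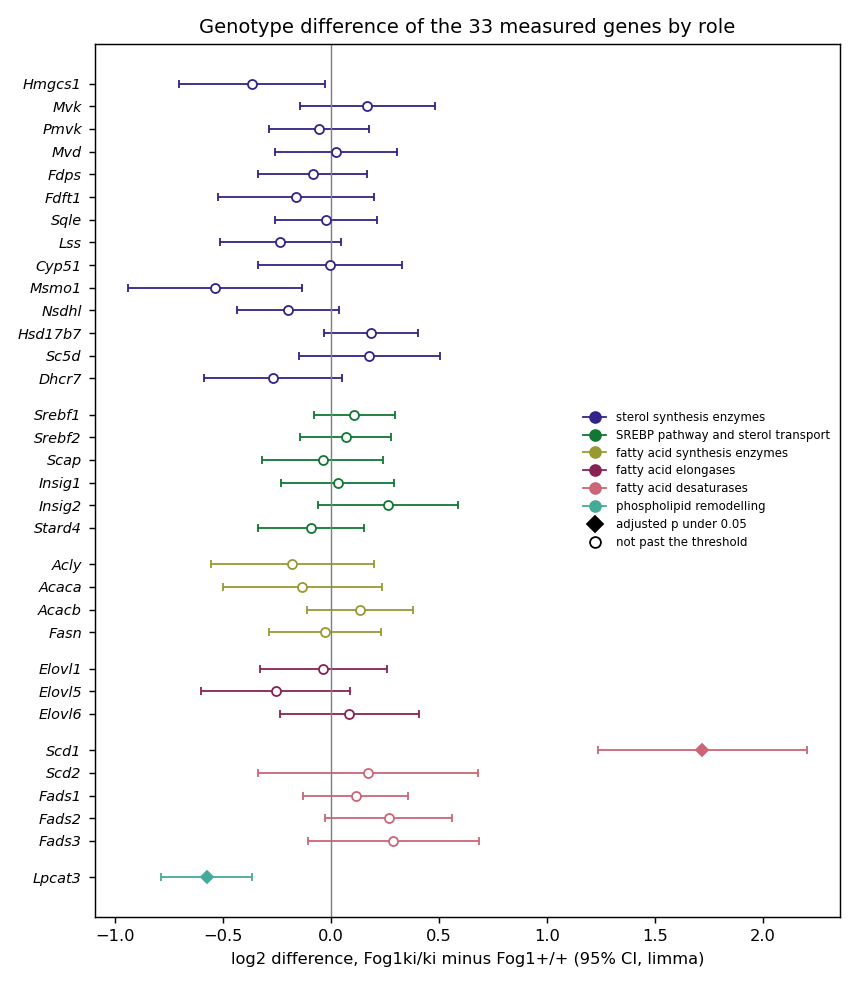
Log2 difference, Fog1ki/ki minus Fog1+/+, of the 33 measured genes (vertical axis, by role and in pathway order) with the 95% confidence interval of the limma fit. Filled diamonds mark an adjusted p under 0.05, which Scd1 (1.72) and Lpcat3 (-0.58) reached, and open circles mark the 31 other genes, whose differences ran from -0.54 to 0.29.

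Scd1, the stearoyl-CoA desaturase that makes oleate and palmitoleate from saturated chains, measured 7.03, 7.38 and 6.69 on the log2 scale in Fog1+/+ and 9.01, 8.92 and 8.33 in Fog1ki/ki. Every Fog1ki/ki array was above every Fog1+/+ array, and the lowest knock-in array was replicate 3, as the lowest wild-type array was. The means were 7.03 ± 0.35 and 8.75 ± 0.37 (SD, n = 3 each), a 3.29-fold increase (log2 difference 1.72, SE 0.21, limma adjusted p = 0.00864). The 95% confidence interval of the log2 difference ran from 1.24 to 2.20. Among all 19661 genes the increase of Scd1 ranked 9 by size, and among the 74 genes called higher it ranked 8. Scd1 did not pass without Fog1+/+ replicate 1 (limma adjusted p = 0.0507) or without Fog1ki/ki replicate 2 (limma adjusted p = 0.0585), and over the 17 alternative settings run its difference ranged from 1.55 to 1.93 (log2).

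Scd2, a relative of Scd1, encodes the stearoyl-CoA desaturase best known from brain and from young animals. Scd2 measured 8.07, 8.51 and 7.95 in Fog1+/+ and 8.78, 7.88 and 8.38 in Fog1ki/ki. The genotypes overlapped fully, with a knock-in array both highest and lowest, and the log2 difference was 0.17 (95% confidence interval -0.34 to 0.68, limma adjusted p = 0.878). The genotype difference of Scd1 exceeded that of Scd2 by 1.55 on the log2 scale. Centred on Fog1+/+, the Scd1 value minus the Scd2 value was 1.37, 2.18 and 1.09 in Fog1ki/ki and between -0.12 and 0.10 in Fog1+/+. Scd1 was compared in this way with each of the 4 other desaturases. Its difference exceeded theirs by 1.43 to 1.61. Since Scd1 was set against them as the desaturase past the threshold, these values are a description. An exact permutation test over arrays gave p = 0.1 for each of the 4 comparisons. With 3 arrays per genotype no smaller p is possible, so that test could not decide.

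Fads1, which places the last double bond in arachidonic acid, measured 8.19, 8.17 and 8.14 in Fog1+/+ and 8.48, 8.16 and 8.20 in Fog1ki/ki. Fads2, which catalyses the entry step of polyunsaturated fatty acid synthesis, measured 9.38, 9.29 and 9.28 in Fog1+/+ and 9.82, 9.32 and 9.61 in Fog1ki/ki. Fads3, a relative that acts on sphingoid bases, measured 7.71, 7.09 and 7.42 in Fog1+/+ and 7.98, 7.54 and 7.56 in Fog1ki/ki. In all 3 genes Fog1ki/ki replicate 1 was the highest of the 6 arrays, and the genotypes overlapped. Their log2 differences were 0.11, 0.27 and 0.29 (limma adjusted p = 0.810, 0.579 and 0.672), with upper 95% confidence bounds of 0.36, 0.56 and 0.68. All 5 desaturases had a difference above 0, as 56.3% of all genes did, with a median of 0.27, and 1 of the 5 passed. Without Fog1ki/ki replicate 1 the differences of Scd2, Fads1, Fads2 and Fads3 were -0.047, 0.013, 0.15 and 0.14. That of Scd1 was then 1.59, and the median of the 5 was 0.14. Array weights gave this array the lowest weight of the 6, 0.44 against 0.83 to 1.56.

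**Figure D2:**
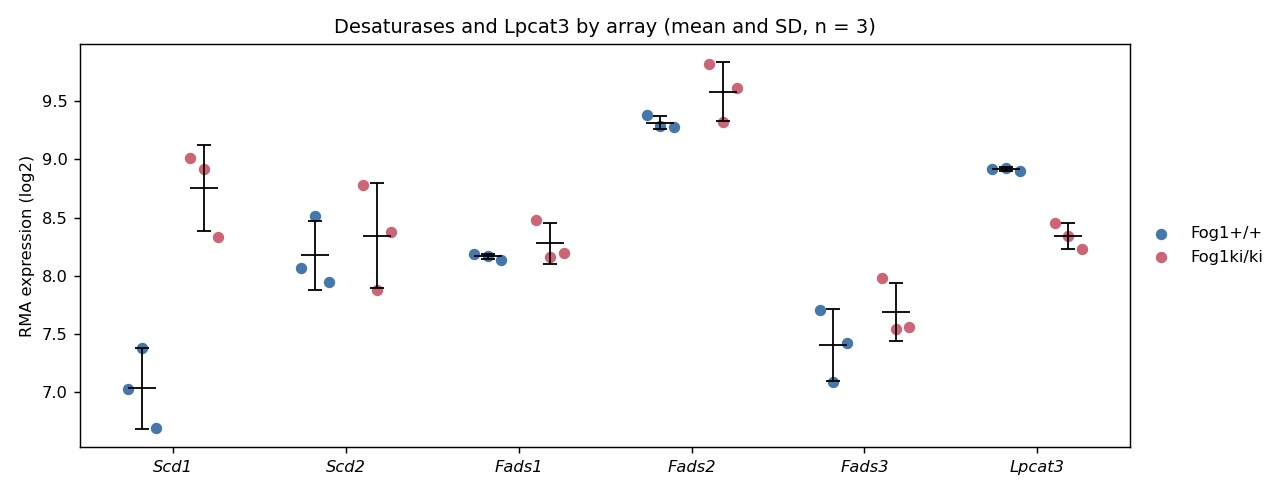
RMA expression (log2, vertical axis) of the 5 desaturase genes and Lpcat3 in each array of Fog1+/+ (blue) and Fog1ki/ki (red), with the mean and SD of 3 arrays in black. The genotypes separate in Scd1 and Lpcat3 and overlap in Scd2, Fads1, Fads2 and Fads3.

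All 5 desaturase genes lie on chromosome 19, in 2 clusters of neighbours. Scd3, Scd2, Scd4 and Scd1 follow one another in the order of tested genes (gene order from RefSeq, GRCm38.p6). Scd3, a desaturase of skin glands, had a log2 difference of 0.14 and Scd4, a heart desaturase, one of 0.12, and neither passed (limma adjusted p = 0.699 and 0.768). Of the 20 tested genes within 10 places of Scd1, none passed (0 in limma, 0 at an unadjusted p under 0.05), with differences from -0.19 to 0.22. Scd1 alone passed among these 21 genes, where 0.773% of all genes tested passed in either direction. A count of 0 neighbours is near that share.

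**Figure D3:**
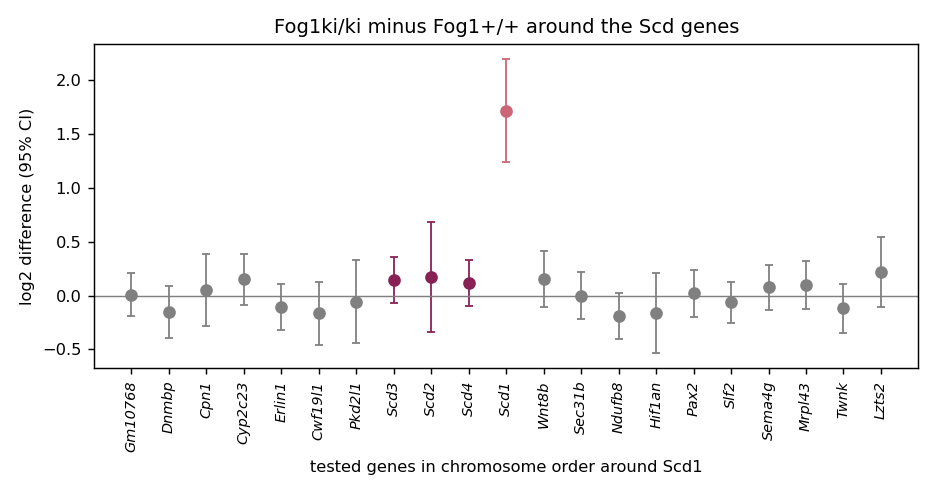
Log2 difference, Fog1ki/ki minus Fog1+/+ (vertical axis, with the 95% confidence interval of the limma fit), of Scd1 and of the 10 tested genes on each side of it in chromosome order (horizontal axis). Scd1 stands at 1.72, its relatives Scd3, Scd2 and Scd4 between 0.12 and 0.17, and the other neighbours between -0.19 and 0.22.

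Some markers of another cell type differed between the genotypes in the same arrays. Of 10 mast cell markers, 1 passed as higher and 4 had every Fog1ki/ki array above every Fog1+/+ array, as 8.31% of all genes did. These 4 were Ms4a2 (log2 difference 3.79), Fcer1a (1.91), Gzmb (1.27) and Cma1 (0.21). In Cpa3 (0.53), Mcpt4 (0.21), Tpsab1 (0.13), Tpsb2 (0.07), Hdc (0.06) and Mrgprb2 (0.06) the genotypes overlapped. The mean log2 level of the 10 was 4.71 to 4.76 in Fog1+/+ and 5.87, 5.57 and 5.24 in Fog1ki/ki replicates 1, 2 and 3, with Mcpt4 and Mrgprb2 under the lower quartile on every array. The marker that passed, the IgE receptor chain Ms4a2, measured 9.15, 8.64 and 7.80 in those Fog1ki/ki arrays. Replicate 3 was the lowest Fog1ki/ki array for Scd1, for Ms4a2 and for the marker mean. In Fog1+/+ too, replicate 3 was the lowest array for Scd1 (6.69), for Ms4a2 (4.67) and for the marker mean (4.71). There, however, Ms4a2 (4.74, 4.80 and 4.67) lay under the lower quartile of each array (4.86, 4.85 and 4.81). The marker mean spanned only 4.71 to 4.76 in Fog1+/+, so the order of these arrays carries little information. The part of mast cell RNA in the Scd1 difference was not tested. Adipocytes are rich in Scd1, and 3 of 7 adipocyte markers, Adipoq, Fabp4 and Lep, lay under the lower quartile on every array. The mean log2 level of the 7 was 5.09 to 5.24 in Fog1+/+ and 5.11 to 5.29 in Fog1ki/ki, and none passed (0 in limma, 0 at an unadjusted p under 0.05). Of the 7, 6 had a difference above 0, as 56.3% of all genes did. Cidec (0.23) and Fabp4 (0.12) were higher in every Fog1ki/ki array, as 8.31% of all genes were. The part of adipocyte RNA in the Scd1 difference was not tested. Macrophage markers ranged in their mean from 5.23 to 5.26 and from 5.18 to 5.29, neutrophil markers from 7.32 to 7.75 and from 7.27 to 7.66, and B lymphoid markers from 5.63 to 5.91 and from 5.83 to 6.06, in Fog1+/+ and Fog1ki/ki respectively.

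Lpcat3, the acyltransferase that loads polyunsaturated chains onto lysophospholipids, measured 8.92, 8.93 and 8.90 in Fog1+/+ and 8.45, 8.34 and 8.23 in Fog1ki/ki. The Fog1+/+ arrays lay within 0.03 of one another and all 3 Fog1ki/ki arrays lay lower. The means were 8.92 ± 0.02 and 8.34 ± 0.11 (SD, n = 3 each), a 1.49-fold decrease (log2 difference -0.58, SE 0.09, limma adjusted p = 0.0309). Over the 17 alternative settings the difference ranged from -0.63 to -0.52 (log2), but the call was lost in 8 of them. These were the removal of any 1 Fog1+/+ array or of replicate 2 or 3 of Fog1ki/ki (over these 5, limma adjusted p from 0.0883 to 0.140), leaving out both replicates 3 (0.324), centring each array on its median (0.0520) and the replicate number as a block (0.0681). None of the 20 tested genes within 10 places of Lpcat3 passed (0 in limma, 3 at an unadjusted p under 0.05), with differences from -0.34 to 0.32. Of all genes tested, 0.773% passed in either direction.

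The promoters were read for short motifs that are known from lipid genes, in the 250 bases before each RefSeq start site (GRCm38.p6). Of the 33 genes, 26 matched the promoter table by symbol, with 35 start sites, and Scd1, Scd2, Fads1, Sqle, Fdft1, Fdps and Stard4 did not. The motifs, each searched on both strands, were CCAAT, the box bound by NF-Y, TCACNCCAC, a form of the sterol regulatory element bound by SREBP, and AGATAA, which GATA factors bind. No 2 of these motifs contain one another. CCAAT was found at 62.9% of the genes' start sites, against 33.8% of all 32851 start sites in the table, and in each of the 11 sterol enzyme genes that matched. TCACNCCAC was found before 1 gene, Hmgcs1, and at 1.05% of all start sites, and AGATAA before 1 gene, Elovl1, and at 9.99% of all start sites. A match describes letters and shows no binding. Other forms of the sterol regulatory element were not searched. The promoter of Lpcat3 is shown because it is the gene past the threshold that the table holds (chr6:124662854-124663103, plus strand). That of Hmgcs1 is shown because it alone of the 26 genes holds TCACNCCAC (chr13:119690101-119690350, plus strand). Both are written 5′ to 3′ and end just before the start site, with CCAAT, its reverse complement ATTGG and TCACNCCAC in capitals.
Lpcat3: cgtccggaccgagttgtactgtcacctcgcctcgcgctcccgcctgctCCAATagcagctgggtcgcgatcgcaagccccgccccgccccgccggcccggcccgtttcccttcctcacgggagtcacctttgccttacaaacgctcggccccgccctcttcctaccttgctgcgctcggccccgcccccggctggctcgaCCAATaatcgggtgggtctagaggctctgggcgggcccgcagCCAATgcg
Hmgcs1: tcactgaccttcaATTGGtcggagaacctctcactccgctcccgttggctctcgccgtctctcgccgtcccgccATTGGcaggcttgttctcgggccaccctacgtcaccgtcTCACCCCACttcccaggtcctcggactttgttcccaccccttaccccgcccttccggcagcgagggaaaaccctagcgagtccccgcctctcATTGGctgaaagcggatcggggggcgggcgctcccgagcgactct
In Lpcat3, which fell, CCAAT begins 202, 50 and 8 bases before the start site, all on the gene's strand. In Hmgcs1, which did not pass the test, 3 boxes on the opposite strand lie around the sterol element, which begins 137 bases before the start site.

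The start of the sterol pathway makes mevalonate from acetyl-CoA. Hmgcs1, the synthase that makes HMG-CoA, measured 7.71, 7.47 and 7.31 in Fog1+/+ and 7.42, 6.97 and 7.00 in Fog1ki/ki. The knock-in arrays were mostly lower but overlapped with the wild type, and the log2 difference of -0.37 (SE 0.15) did not pass (limma adjusted p = 0.476). The kinases that phosphorylate mevalonate, Mvk and Pmvk, had log2 differences of 0.17 and -0.06. Mvd, which decarboxylates the product to isopentenyl pyrophosphate, measured 6.82, 6.80 and 6.90 in Fog1+/+ and 6.62, 6.87 and 7.09 in Fog1ki/ki. Mvd lies on the chromosome that carries Zfpm1, with 4 tested genes between them, and its difference of 0.02 (SE 0.12, limma adjusted p = 0.980) was smaller than the spread between its replicates.

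In the middle of the pathway, Fdps makes farnesyl pyrophosphate, Fdft1 joins farnesyl units to squalene, Sqle oxidises squalene and Lss closes it into lanosterol. Their log2 differences were -0.09, -0.16, -0.02 and -0.24, and none passed (0 in limma, 0 at an unadjusted p under 0.05). Sqle, often the slow step after HMG-CoA reductase, had a 95% confidence interval from -0.26 to 0.21.

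From lanosterol to cholesterol, Msmo1, the sterol methyl oxidase, measured 6.63, 6.62 and 6.41 in Fog1+/+ and 5.98, 6.42 and 5.65 in Fog1ki/ki. Fog1ki/ki replicate 2 lay among the wild-type arrays, and the log2 difference of -0.54 (SE 0.18) did not pass (limma adjusted p = 0.333). Nsdhl, the sterol dehydrogenase that acts with it, measured 8.55, 8.78 and 8.60 in Fog1+/+ and 8.33, 8.45 and 8.55 in Fog1ki/ki. It had the third smallest p of the sterol enzymes but did not pass, with a difference of -0.20 (SE 0.10, limma adjusted p = 0.607). The demethylase Cyp51, the ketoreductase Hsd17b7, the desaturase of the sterol ring Sc5d and the final reductase Dhcr7 had log2 differences of -0.01, 0.18, 0.18 and -0.27, and none passed (0 in limma, 0 at an unadjusted p under 0.05).

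Over the 14 sterol enzymes, 10 differences were below 0 and 4 above, where 42.8% of all genes were below and 56.3% above. The count below 0 was 8 with quantile normalization repeated and 11 with each array centred on its median, where Mvd turned to -0.033. Their median difference was -0.07, beside 0.02 over all genes tested, and the median stayed between -0.13 and -0.03 in the 17 alternative settings. None of the 14 had genotypes that did not overlap, while 8.31% of all genes did so with Fog1ki/ki higher and 6.53% with it lower. The widest 95% confidence interval bounds among the 14 were -0.94 and 0.50. A rise as large as that of Scd1 thus lay outside the interval of every measured sterol enzyme.

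Among the genes that control the pathway, Srebf1, the SREBP of fatty acid synthesis, measured 7.55, 7.59 and 7.54 in Fog1+/+ and 7.67, 7.65 and 7.68 in Fog1ki/ki. The genotypes did not overlap, but the log2 difference was 0.11 (SE 0.08, limma adjusted p = 0.753), a 1.08-fold change. Insig2, a retention factor of SCAP, measured 7.84, 8.30 and 8.27 in Fog1+/+ and 8.44, 8.23 and 8.53 in Fog1ki/ki, and its difference of 0.26 (SE 0.14) did not pass (limma adjusted p = 0.625). Stard4, a carrier of sterol between membranes, measured 8.83, 8.80 and 8.96 in Fog1+/+ and 8.90, 8.59 and 8.82 in Fog1ki/ki. Its genotypes overlapped, with a difference of -0.09. Srebf2, the SREBP of sterol synthesis, Scap and Insig1, which is itself a SREBP target, had differences of 0.07, -0.04 and 0.03. The 95% confidence intervals of all 6 genes lay between -0.34 and 0.59, with 4 differences above 0, 2 below and a median of 0.05. With each array centred on its median, 3 were above 0 and 3 below.

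Of the fatty acid synthesis enzymes, Acly, which cuts citrate to supply acetyl-CoA, measured 8.20, 8.11 and 7.90 in Fog1+/+ and 8.21, 7.53 and 7.93 in Fog1ki/ki. Acaca, the cytosolic acetyl-CoA carboxylase, measured 7.45, 7.00 and 7.13 in Fog1+/+ and 7.34, 6.79 and 7.05 in Fog1ki/ki. Acacb, the carboxylase of the mitochondrial surface, measured 6.02, 5.89 and 5.96 in Fog1+/+ and 5.96, 6.03 and 6.28 in Fog1ki/ki. In all 3 the genotypes overlapped, and in Acly and Acaca the lowest array was Fog1ki/ki replicate 2. Their log2 differences were -0.18, -0.13 and 0.13 (limma adjusted p = 0.807, 0.861 and 0.767), and that of Fasn, the fatty acid synthase, was -0.03 (95% confidence interval -0.29 to 0.23). The median of the 4 was -0.08, and Acaca turned to 0.0017 without Fog1ki/ki replicate 2.

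The elongases lengthen fatty acids that are already made. Elovl5, which extends polyunsaturated chains between the FADS steps, measured 9.14, 9.07 and 8.92 in Fog1+/+ and 8.94, 8.99 and 8.43 in Fog1ki/ki. The genotypes overlapped and the difference of -0.26 (SE 0.15) did not pass (limma adjusted p = 0.661). Elovl6, which extends palmitate to stearate, the substrate of SCD1, had a difference of 0.08, and Elovl1, which makes very long chains, one of -0.04. Of the 7 measured genes of fatty acid synthesis and elongation, none passed (0 in limma, 0 at an unadjusted p under 0.05).

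To set desaturation against sterol synthesis within each array, each gene was expressed as its deviation from its own Fog1+/+ mean and averaged by role. The desaturase mean was 0.06, 0.07 and -0.12 in Fog1+/+ and 0.79, 0.34 and 0.40 in Fog1ki/ki. The sterol enzyme mean was 0.05, -0.03 and -0.02 in Fog1+/+ and -0.07, -0.10 and -0.13 in Fog1ki/ki. The desaturase mean minus the sterol mean was therefore 0.87, 0.44 and 0.52 in the Fog1ki/ki arrays, on average 0.61 ± 0.23 (SD, n = 3), against -0.11 to 0.10 in Fog1+/+. Much of that distance came from Scd1. With Scd1 left out, the value was 0.57, 0.06 and 0.30 in the Fog1ki/ki arrays, on average 0.31, and the desaturase mean alone, 0.50, -0.04 and 0.17, overlapped with Fog1+/+ (-0.07 to 0.07). These means describe genes chosen with earlier results in view and were given no test.

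**Figure D4:**
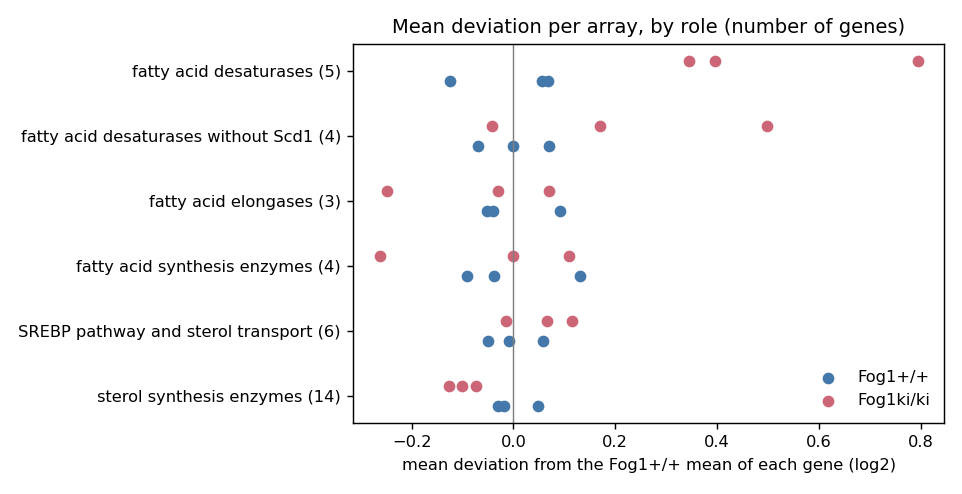
Mean deviation of each role's genes from their Fog1+/+ means (horizontal axis, log2) in each array of Fog1+/+ (blue) and Fog1ki/ki (red), with the number of genes averaged in brackets. The desaturases reach 0.34 to 0.79 in Fog1ki/ki with Scd1 and -0.04 to 0.50 without it, and the sterol enzymes lie between -0.13 and -0.07.

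Other genes of lipid metabolism were read from 3 lists, of which 94 of 109 genes were measured. Over these, 1 rose and 3 fell (limma), where 0.376% and 0.397% of all genes did. Of 20 further sterol genes, 0 rose, 1 fell and 19 did not pass, with a median difference of 0.03. Npc2, the lysosomal protein that hands cholesterol to NPC1, measured 9.46, 9.59 and 9.54 in Fog1+/+ and 8.43, 8.80 and 8.26 in Fog1ki/ki. All Fog1ki/ki arrays were lower, a 2.05-fold decrease (log2 difference -1.03, SE 0.14, limma adjusted p = 0.0127). The Npc2 call was lost without any 1 of the Fog1+/+ arrays (limma adjusted p from 0.0525 to 0.0763) and without both replicates 3 (0.189).

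Of 46 further genes of fatty acid and glycerolipid synthesis, 0 rose, 1 fell and 45 did not pass, with a median difference of -0.01. At an unadjusted p under 0.05 (limma), 2 were higher and 8 lower, where 4.99% and 4.58% of all genes were. Without overlap of the genotypes, 4 were higher and 9 lower in Fog1ki/ki, where 8.31% and 6.53% of all genes were. Acsl6, an acyl-CoA synthetase known from brain and red cell precursors, measured 7.02, 7.32 and 7.16 in Fog1+/+ and 6.25, 6.21 and 6.45 in Fog1ki/ki. The genotypes did not overlap, and it was 1.82-fold lower (log2 difference -0.86, SE 0.11, limma adjusted p = 0.0111). Acsl6 did not pass without Fog1+/+ replicate 3 (limma adjusted p = 0.0699), without Fog1ki/ki replicate 2 (0.0603) and without both replicates 3 (0.133).

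Of 28 genes of fatty acid uptake, lipolysis and oxidation, 1 rose, 1 fell and 26 did not pass, with a median difference of 0.01. Acadl, the long-chain acyl-CoA dehydrogenase of mitochondrial oxidation, measured 9.63, 9.87 and 9.90 in Fog1+/+ and between 8.96 and 9.28 in Fog1ki/ki, a 1.65-fold decrease (log2 difference -0.72, SE 0.12, limma adjusted p = 0.0362). Decr1, the reductase needed to oxidise unsaturated chains, measured 9.67, 9.84 and 9.71 in Fog1+/+ and 10.37, 10.45 and 10.30 in Fog1ki/ki, a 1.55-fold increase (log2 difference 0.63, SE 0.09, limma adjusted p = 0.0202). In neither gene did the genotypes overlap. Acadl fell short of the threshold in 10 of 17 alternative settings, including each removal of 1 array except Fog1ki/ki replicate 1 (limma adjusted p from 0.0663 to 0.182) and the test over all probe sets (0.0597). Decr1 fell short in 6, including each removal of 1 Fog1+/+ array (limma adjusted p from 0.0511 to 0.121) and that of Fog1ki/ki replicate 2 (0.0867). Without both replicates 3 the adjusted p was 0.411 for Acadl and 0.251 for Decr1. The part of mast cell RNA in the differences of these 4 genes was not tested.

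**Figure D5:**
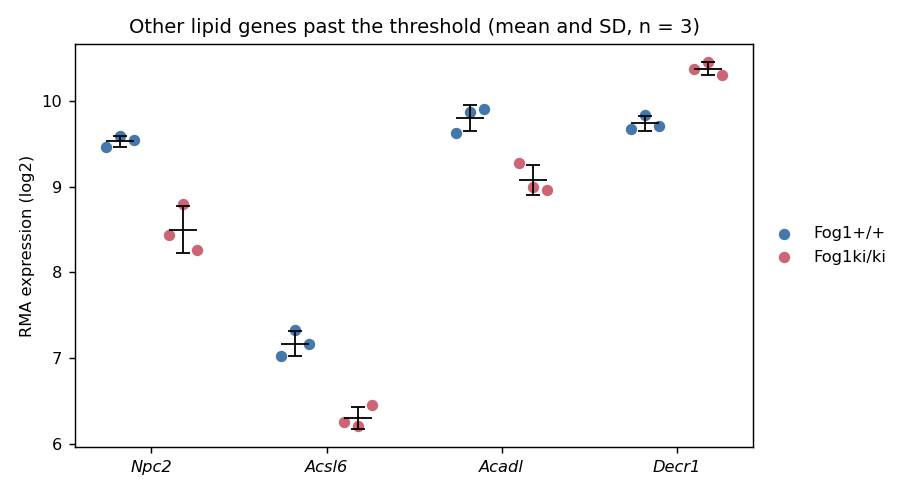
RMA expression (log2, vertical axis) of the 4 genes past the threshold in the 3 further lipid lists, in each array of Fog1+/+ (blue) and Fog1ki/ki (red), with the mean and SD of 3 arrays in black. Npc2, Acsl6 and Acadl are lower and Decr1 is higher in every Fog1ki/ki array than in any Fog1+/+ array.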

How the data were processed

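Total RNA of 6 sorted cell samples was amplified, labelled with biotin and hybridised to 1-colour arrays, per the labels' protocols. The authors deposited log2 values with 2 decimals, which the submitters' processing notes call RMA (background correction, quantile normalization and summary of probes). Software and settings: not given in the sources used here. The scale was read from the values. RMA compresses differences of dim probe sets, and the number of arrays limits the precision.

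Of 25668 probe sets, 20777 had 1 gene in the platform annotation, which can be old, 232 had several and 4659 none. Where a gene had several probe sets, the brightest by mean over the 6 arrays was used. The genotype difference was fitted with limma 3.58.1 (R 4.3.3, lmFit and eBayes, two-sided, no other term) over 19661 genes, with Benjamini-Hochberg adjustment over all of them and no filter. Genes were given with every array value by a fixed rule: those past the threshold, the 3 smallest p of each role with over 3 genes and the smallest of the others, every desaturase and genes within 10 tested genes of Zfpm1. From the other lists, genes past the threshold were named, and from the markers those that bear on Scd1. The genes, lists and markers were chosen with earlier results of these data known. The code was tested on simulated data. Tables and figures used Python 3.11.15, pandas 2.3.3 and matplotlib 3.10.9.

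The alternatives tried were a second quantile normalization, median centring of each array, removal of the dimmest 25% of genes, averaged probe sets, all probe sets, array weights, an intensity trend, a block for the replicate number, a term for both replicates 3, a threshold of 0.1, and leaving out each array or both replicates 3. Leaving Scd1 out of the desaturase mean was chosen after seeing the data.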

Additional observations from a re-analysis of the deposited data

How the results depend on the processing

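In the 17 alternative settings, the 21 named genes kept their direction and side of the threshold in 317 of 357 values. In 33 values a call was lost, 5 changed sign and 2 were exactly 0 (Acly without Fog1ki/ki replicate 2 and Mvd without Fog1+/+ replicate 2). All 33 lost calls fell on the genes past the threshold. Of 17 settings each, Scd1 lost 2, Acsl6 3, Npc2 4, Decr1 6, Lpcat3 8 and Acadl 10. The other named genes had no call to lose, and the setting with a threshold of 0.1 could lose none. Several settings also could not change a direction, because they left the differences of the named genes as they were. These were removal of the dimmest genes, averaged probe sets, all probe sets and the intensity trend. The replicate block, the term for both replicates 3 and the threshold of 0.1 were further such settings. The count of 317 was thus in large part fixed in advance. With all arrays 152 genes passed over the whole table, 74 higher and 78 lower, and with each array centred on its median 43 higher and 73 lower. Of the genes studied, the count called lower was 1 and became 0 with median centring, with the replicate block and without both replicates 3. Without both replicates 3 the whole table gave 24 genes. With 1 array left out, the count called higher ran from 0 to 1, the count called lower from 0 to 1 and the whole table from 60 to 134. The count called higher was 0 without Fog1+/+ replicate 1 or Fog1ki/ki replicate 2, and the whole table gave 60, 83 and 60 without Fog1+/+ replicates 1, 2 and 3 and 82 without Fog1ki/ki replicate 2. The distance of desaturases from sterol enzymes, 0.61, ran from 0.48 to 0.69 with 1 array left out and was 0.31 without Scd1. Small differences that did not pass changed sign: Mvd was -0.033 with median centring, -0.065 without both replicates 3 and -0.095 to 0.14 with 1 array left out, Scd2 ran from -0.047 to 0.40 and Acaca from -0.27 to 0.0017. The cause of these changes was not tested.

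The replicate numbers were not taken to pair the arrays, since not every same-numbered correlation was over 0.1. The deviations of same-numbered arrays correlated over genes at 0.07, -0.01 and 0.13 for numbers 1, 2 and 3. Fog1+/+ replicates 1 and 3 correlated best with their own number, and both replicates 3 share the low Y-linked value, while Fog1+/+ replicate 2 correlated best with Fog1ki/ki replicate 3 (0.01). With the replicate block, 133 genes passed over the whole table, Scd1 was still called and Lpcat3 was not (limma adjusted p = 0.0681).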

Other observations

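Other lipid genes stood out by values that did not pass the test over all genes, and they were picked with these values in view. Hsd17b12 and Hacd3 act after the ELOVL enzymes in the fatty acid elongation cycle. Their log2 differences were -0.39 (SE 0.10, limma adjusted p = 0.176) and -0.32 (SE 0.09, limma adjusted p = 0.249), and in neither did the genotypes overlap. Over all genes, 6.53% were lower and 8.31% higher in every Fog1ki/ki array. Hsd17b12 measured 8.78, 8.81 and 8.80 in Fog1ki/ki and at least 9.03 in Fog1+/+. Of the same cycle, Hacd1, Hacd2, Hacd4 and Tecr had differences of -0.10, -0.23, 0.11 and 0.02. The further elongases Elovl2, Elovl3, Elovl4 and Elovl7 had differences of 0.01, 0.10, 0.14 and 0.38. Elovl4 and Elovl7 were higher in every Fog1ki/ki array, and neither passed (limma adjusted p = 0.665 and 0.249). Degs1, the desaturase that forms ceramide, had a difference of -0.40 (SE 0.10, limma adjusted p = 0.142), again with no overlap, while Scd1 moved the other way.

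Lipa, the lysosomal lipase that frees cholesterol from its esters ahead of NPC2, measured 8.48, 8.84 and 8.54 in Fog1+/+ and 8.09, 7.87 and 7.00 in Fog1ki/ki. The genotypes did not overlap, and its difference of -0.97 (SE 0.25) did not pass (limma adjusted p = 0.190). Mgll, which splits monoglycerides, had a difference of 0.94 (SE 0.21, limma adjusted p = 0.114), and Apoe, a lipoprotein of cholesterol export, one of 0.66 (SE 0.17, limma adjusted p = 0.192), both with every Fog1ki/ki array above every Fog1+/+ array. Tm7sf2, a sterol reductase of the part of the pathway after lanosterol, had a difference of 0.40 (SE 0.11, limma adjusted p = 0.230). The mean log2 level of the mast cell markers was higher in the same Fog1ki/ki arrays, at 5.24 to 5.87 against 4.71 to 4.76. The part of mast cell RNA in these differences was not tested.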
